A study of Mus musculus with 2 samples.

Results

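The 10 genes described here encode gut hormones and granule proteins of enteroendocrine cells: Cck, Gip, Sct, Ghrl, Pyy, Gcg and Nts, which encode hormones, Chga and Chgb, which encode granule proteins, and Neurod1, which encodes a transcription factor. They were taken by name, as all non-control probes whose gene name on both arrays is one of the 10, which gave 14 probes. They stand among 24813 named genes on the array, of which 15245 gave a signal well above background on 1 array or both, 9 of these 10 among them. The arrays compared cells of Peyer's patches of the mouse, clusters of lymphoid follicles in the wall of the small intestine, released by digestion with dispase II, collagenase D and DNase I. Both fractions came from C57BL/6 mice carrying the S100A4-GFP transgene, a green fluorescent reporter for the calcium-binding protein S100A4. The cells had been sorted into an S100A4-positive and an S100A4-negative fraction, and total RNA of 1 sample from each, carrying the dye Cy3, went onto an array of its own. The age of the mice, the number pooled and the sorting gates are not given in the sources used here. The study asked how the expression profiles of the fractions differ.

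Enteroendocrine cells are scattered hormone-secreting cells of the gut epithelium. They store peptide hormones in dense-core granules, whose matrix is built largely of chromogranins, and release them on contact with nutrients. Different cells make different hormones: Cck, Sct and Gip are typical of the upper small intestine, whereas Gcg (the precursor of GLP-1), Pyy and Nts are typical of the ileum and colon. Neurod1 is a basic helix-loop-helix factor that acts late in the formation of these cells. Peyer's patches are covered by an epithelium, so a digest of the patches can contain epithelial cells beside leukocytes.

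Since each fraction has 1 array, the differences have no replicate check and carry no p-value. Of 59305 non-control spots, the negative array had 53.3% well above background and the positive array 52.3%, and 0 were saturated. Signals are the scanner software's background-subtracted values in scanner units. Differences are log2 values, S100A4-positive minus S100A4-negative, after centring at the 75th percentile of an array's signals (445.9 for the negative fraction and 287.3 for the positive). The error given with a difference is the software's own error for single spots, averaged where a probe has several. It builds in a preset error of 10% of the signal, so it is a model value and not an observed spread. It does not cover variation among animals, cell sorts or labelling. The reporter's own gene, S100a4, gave a 175-fold higher signal in the fraction labelled positive.

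The probes are 60-base oligonucleotides, and the sequences that bear on the measurements are shown here as the array files give them, on the mm9 build. The Gip probe, whose ends lie at chr11:95886745-95887966 on the plus strand, and 1 Ghrl probe, at chr6:113666248-113667090 on the minus strand, span 1222 and 843 bases of the genome, far more than their own length, so both cross an intron and match spliced RNA. The exon or untranslated region of the other probes was not analysed here.
Gip, whole probe: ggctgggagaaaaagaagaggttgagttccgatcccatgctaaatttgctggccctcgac
Ghrl, whole probe across an intron: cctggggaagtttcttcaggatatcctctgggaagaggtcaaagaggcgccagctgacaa
Stretches of 30 bases of other probes are shown because they hold AATAAA or ATTAAA, in capitals, hexamers that can act as polyadenylation signals near the 3′ end of a transcript. The Cck probe lies at chr9:121398943-121399002, the Sct probe at chr7:148464238-148464297 and the Ghrl probe at chr6:113666114-113666173, all on the minus strand.
Cck, bases 23 to 52: tgttgctatgctATTAAAgagatttccttc
Sct, bases 31 to 60: gttgtccttggcatcAATAAAaaaggaatt
Ghrl, bases 20 to 49: taccactttaagAATAAAtgttcacctgta
One of these hexamers was found in 5 of the 14 member probes and in 13.4% of the 56605 probes of that length on the array, searched on the probe strand. These 5 are the Cck, Sct and Nts probes and 2 Ghrl probes of identical sequence. In the Nts probe, not shown, AATAAA starts at base 12. Whether any of these hexamers acts as a polyadenylation signal was not tested. The Ghrl sequence is carried by 2 probes of different name, which makes them a check of each other. Gcg also has 2 probes, at chr2:62312685-62312744 and, about 6 kb away, at chr2:62318657-62318716, both on the minus strand, and their first 30 bases are shown because the 2 gave different results.
Gcg, probe nearer the 3′ end: gtcacaacacctggattatactaacagaag
Gcg, upstream probe: gcacgtaatattaacttagtcaaaattgag

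Cck, Sct, Gip and Ghrl, hormone genes of the upper gut, each gave a lower signal in the S100A4-positive fraction. Cck encodes cholecystokinin, which triggers gallbladder contraction and pancreatic enzyme release. Its signal was 2919 in the negative fraction and 38.2 in the positive, the geometric means of 9 and 10 spots. That is 49.2-fold lower, a log2 difference of -5.62 ± 0.25 (software error; 1 array per group). In bulk RNA, fewer cells of a type and less RNA per cell cannot be told apart, and this holds for all that follows. Sct encodes secretin, which stimulates bicarbonate secretion by the pancreas. It read 4014 in the negative fraction and 567.5 in the positive, a log2 difference of -2.19 ± 0.20, or 4.56-fold lower. Its signal on the positive array was thus clearly above the lowest signal called well above background there (15.7).

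Gip encodes the glucose-dependent insulinotropic peptide of K cells. Its signal of 270.2 on the negative array stood against 3.43 on the positive array, where the software had put a surrogate value in place of a signal not above background. Where a probe is not well above background on 1 array, only a bound can be given, which sets the dim array at the higher of its own signal and the lowest signal well above background there. Gip was at least 11.1-fold lower. Ghrl, which encodes the appetite-stimulating hormone ghrelin, was measured on both arrays at 3 of its 4 probes. The probe used for the gene read 938.8 and 73.7 on the negative and positive arrays, an 8.20-fold lower signal (-3.04 ± 0.21). The other probe of the same sequence gave -2.68, so 2 readings of 1 sequence differed by 0.35. The probe across the intron read 288.5 and 20.8 (-3.16 ± 0.31). The 4th Ghrl probe, designed on a predicted transcript, was not well above background on either array (3.40 and 3.47). Its 60 bases lie from 66 to 7 bases before the start of another Ghrl transcript in RefSeq (build GRCm38.p6). Relative to the start of a further Ghrl entry there, they lie from -55 to 4, so they cross that start.

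**Figure D1:**
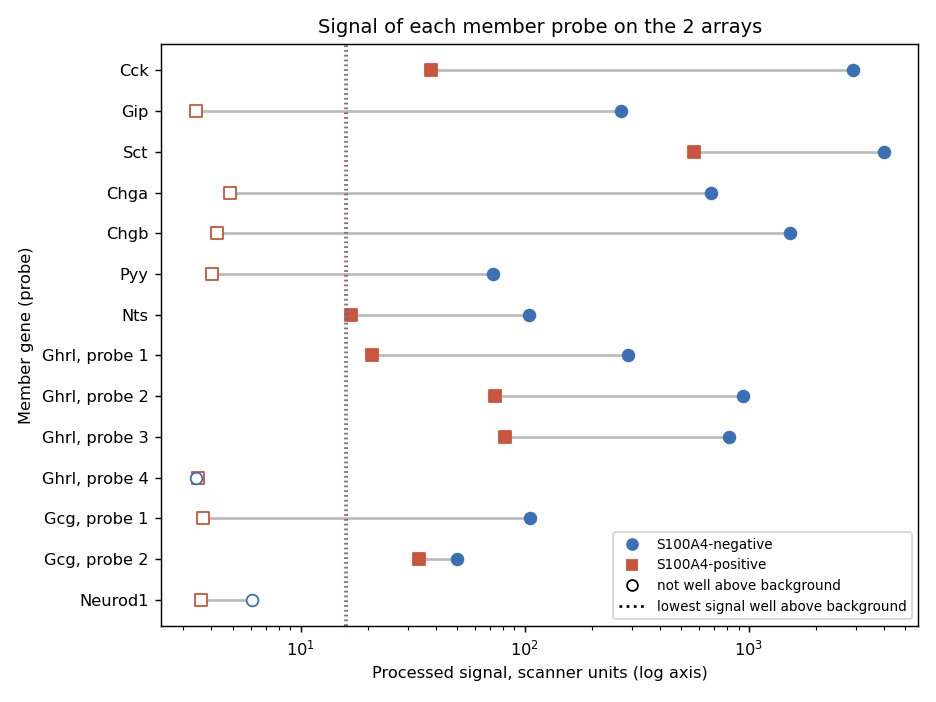
Processed signal (scanner units, log axis) of each of the 14 member probes on the S100A4-negative array (blue circles) and the S100A4-positive array (red squares); open symbols are not well above background, and the dotted lines mark the lowest signal well above background on each array (16.1 and 15.7). In 12 of 14 probes the negative array is the brighter one and well above background; heights of different probes are not comparable.

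The hormones typical of the ileum and colon had dimmer probes. Pyy encodes peptide YY, a satiety hormone. It read 72.0 in the negative fraction and 4.03 in the positive, where it was not well above background, and was at least 2.95-fold lower. Nts encodes neurotensin, a peptide that slows gut movement. It was measured on both arrays, at 105.0 and 16.8, a log2 difference of -2.01 ± 0.34 (4.04-fold lower). Its signal on the positive array lay just above the lowest one called well above background, and under another background correction (normexp) the difference was -0.58.

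Gcg gave 2 answers. The probe nearer the 3′ end read 105.2 in the negative fraction and 3.66, a surrogate value, in the positive, which makes it at least 4.31-fold lower. The upstream probe, designed on a different transcript model, read 49.7 and 33.7, well above background on both arrays, with a log2 difference of 0.07 ± 0.28. By the rule that takes the probe with the highest mean log2 signal over both arrays, the gene entered the counts through the upstream probe. The surrogate value of the 3′ probe entered that mean. A value for Gcg as a gene therefore depends on the probe. On the mean of both probes it was -2.07, with the surrogate of the 3′ probe taken as a signal and no bound applied. On the scale of the spike-in controls, the upstream probe alone gave -2.44.

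The granule proteins showed the same direction as the hormones. Chga encodes chromogranin A, a standard marker of endocrine cells. It read 681.0 in the negative fraction and 4.82 in the positive, where it was not well above background, and was at least 27.9-fold lower. Chgb encodes chromogranin B, a second matrix protein of these granules. It read 1522 and 4.22 (geometric means of 10 spots each), and was at least 62.3-fold lower. Neurod1 was not well above background on either array, with signals of 6.06 and 3.59, so no difference can be given for it.

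**Figure D2:**
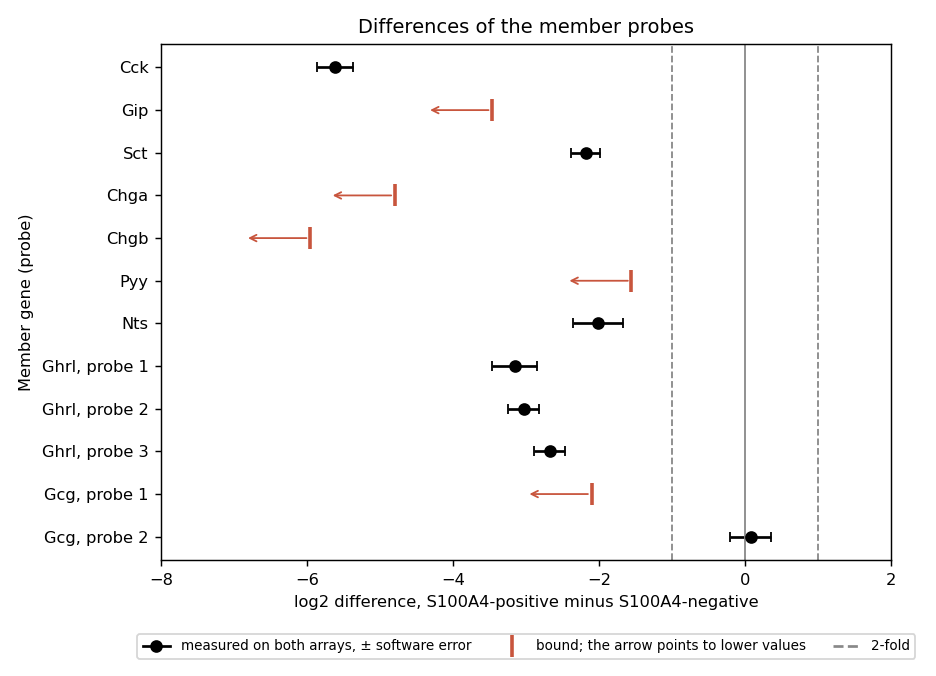
Log2 difference (S100A4-positive minus S100A4-negative) of the 12 member probes that were detected on either array; black points are measured on both arrays with the software's error as bars, red marks are bounds with arrows toward lower values, and dashed lines mark 2-fold. The points and bounds lie between -5.96 (Chgb) and -1.56 (Pyy), except for the upstream Gcg probe at 0.07.

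Cck and Chgb are spotted 10 times on each array, which shows the technical spread within an array. The Cck spots ranged from 2725 to 3058 on the negative array (median 2957, 9 spots) and from 27.2 to 51.6 on the positive array (median 38.4, 10 spots), and all were well above background. A 10th spot on the negative array, at 2185, had been marked as an outlier by the software and was left out. The Chgb spots ranged from 1334 to 1652 on the negative array (median 1516) and from 3.42 to 6.82 on the positive array (median 4.18), where 0 of 10 were well above background and 8 held surrogate values. In these signals, which are not centred, the Cck spots of the arrays did not overlap. The share of other probes for which this holds was not computed. For Chgb overlap is not assessed, since its spots on the positive array were not well above background. The standard deviation between spots was 0.06 and 0.32 (log2) for Cck on the negative and positive array, and 0.10 and 0.30 for Chgb. These spots share 1 labelled sample and are not replicates of a fraction.

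**Figure D3:**
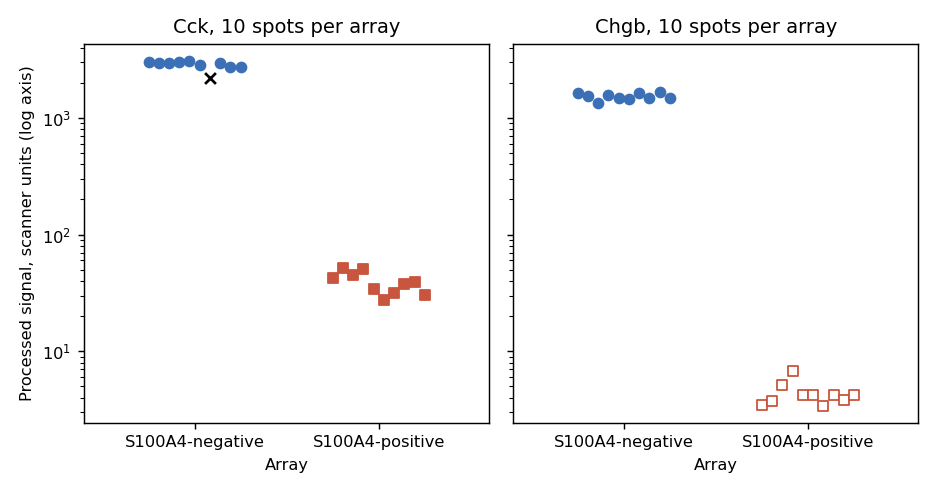
Processed signal (scanner units, log axis) of the 10 spots of the Cck probe and the 10 spots of the Chgb probe on each array; filled symbols are well above background, open ones are not, and the cross is the Cck spot at 2185 left out as an outlier. The Cck spots lie between 2725 and 3058 on the negative array and between 27.2 and 51.6 on the positive array.

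Among the 9 genes with a measured signal, the S100A4-positive fraction was lower by 2-fold or more for 8 and higher for 0, with genes seen on 1 array taken at their bound. Over all 15245 genes measured the same way, 17.0% were at least 2-fold lower and 21.4% at least 2-fold higher. All 9 passed the filter on the negative array, and 4 of them (Gip, Chga, Chgb and Pyy) on that array alone, where they had to be lower. These 4 are therefore a description only. Of all 14103 genes detected in the negative fraction, 8.17% were not detected in the positive. Of the 5 genes measured on both arrays, 4 were at least 2-fold lower, with Gcg at its upstream probe as the other one, against 16.4% of 12951 genes (17.7% were higher). At 4-fold, the count over the 9 genes was 7, with Pyy no longer in it, against 4.99% of all genes (9.88% were higher). The median log2 difference was -2.19 over the 5 genes measured on both arrays and 0.01 over all such genes. These counts are relative to the 75th percentile of each array: on the scale of 7 spike-in probes every difference moves by -2.52, and 590 genes were then at least 2-fold higher and 12686 lower, against 3255 and 2595 here. With no scaling these became 1960 and 5336.

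**Figure D4:**
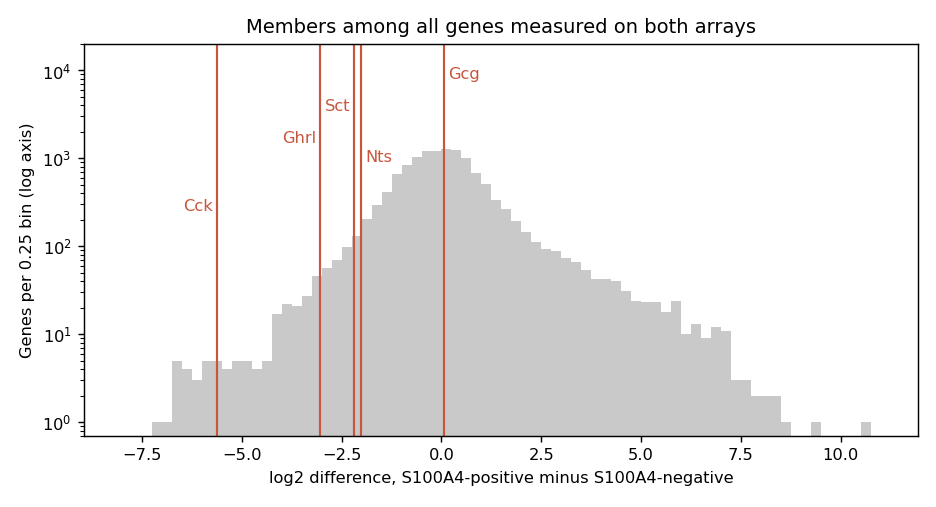
Number of genes (log axis) in bins of 0.25 of the log2 difference, over the 12951 genes well above background on both arrays (grey), with red lines at the 5 members measured on both arrays. Cck lies in the far lower tail at -5.62, Ghrl at -3.04, Sct at -2.19 and Nts at -2.01, while Gcg at its upstream probe, 0.07, lies at the centre.

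The members measured on both arrays did not differ by the same amount. Ordered from the lowest difference, Cck stood at 20 of the 12951 genes (0.154%), Ghrl at 170 (1.31%), Sct at 434 (3.35%) and Nts at 523 (4.04%). The difference for Cck was lower than that for Sct by 3.43 ± 0.32 (log2, software error), than that for Ghrl by 2.59 ± 0.33 and than that for Nts by 3.61 ± 0.42. Scaling cannot move these gaps, since it shifts all genes alike. The gap between Cck and Sct ranged from -3.56 to -2.17 over 11 other settings. Sct and Nts differed from each other by 0.17 ± 0.40, less than the software error, and this gap ranged from -1.65 (normexp) to 0.15 over the other settings. Among genes outside the 10, those whose difference over the 2 arrays lay nearest to the members' median of -2.19 were Rprd2 (-2.19), Tspan5 (-2.19), Xrcc3 (-2.19), Slx4 (-2.19) and Rad54b (-2.18). With 2 arrays this likeness is loose, since 199 of 12946 genes lay within 0.2 of that median.

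Other hormones and amines of these cells are given next, from a list of 12. Of these, 6 were detected, meaning well above background on 1 array or both, with 3 lower by 2-fold or more and 1 higher. Sst, which encodes the inhibitory peptide somatostatin, read 242.6 in the negative fraction and 8.80 in the positive and was at least 9.93-fold lower. Tph1, an enzyme of serotonin synthesis in enterochromaffin cells, was at least 3.12-fold lower, and Tac1, the precursor of substance P, at least 2.90-fold lower. These 3 were detected in the negative fraction alone, and under normexp the count of lower genes in this list was 1. Ddc, the decarboxylase of amine synthesis, was the higher one, at 778.7 and 1730 (1.79 ± 0.20), but lies below 0 on the spike-in scale. Gast, Insl5, Ppy, Iapp, Ucn3 and Mboat4 were not well above background on either array.

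Genes of the granule machinery and of prohormone processing did not follow the hormones as a list. Of 20, 15 were detected, with 2 lower by 2-fold or more, 6 higher and 7 within 2-fold. Their median was 0.83, beside 0.02 over all genes measured the same way, and -1.69 on the spike-in scale, where 10 were lower and 0 higher. Under normexp 1 was lower and 2 were higher. Scg2, the granin secretogranin II, was lower with the chromogranins, at 115.0 in the negative fraction and 3.18 in the positive (at least 4.71-fold). Rab3a, a GTPase of secretory vesicles, was 3.41-fold lower at the probe used (-1.77 ± 0.21), while its other probe gave -0.18. Cpe, the carboxypeptidase that trims prohormones, was higher in the positive fraction, at 297.8 and 1861 (3.28 ± 0.21). Scg5, the chaperone of the convertase PC2, was also higher, at 34.5 and 199.9 (3.17 ± 0.25), as was Pcsk1n, an inhibitor of the convertase PC1/3, at 48.4 and 81.3 (1.38 ± 0.24). Of genes seen on the positive array alone, Pam, the peptide-amidating enzyme, was at least 2.62-fold higher and Scg3, secretogranin III, at least 2.13-fold. On the spike-in scale neither keeps a bound, and Pcsk1n lies below 0.

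Most of the transcription factors that form enteroendocrine cells were not detected. Of 15, 11 were not well above background on either array, among them Neurog3, the factor that starts the lineage, and Pax4, Nkx2-2, Isl1 and Rfx6. Of the other 4, 2 were higher in the positive fraction and 0 at least 2-fold lower. This lower count stayed 0 under normexp. It was 1 under quantile and cyclic loess normalization and with no scaling, and 2 on the spike-in scale. Pax6, detected in the negative fraction alone, read 40.2 there and 3.35 in the positive, with a bound of -0.72. Insm1, a zinc finger factor of endocrine cells, read 24.2 in the negative fraction and 184.1 in the positive (3.56 ± 0.31), opposite in direction to the hormones. Foxa1, a forkhead factor of gut epithelium, read 48.8 and 203.1 (2.69 ± 0.24). The median of the 4 was 1.35, and -1.16 on the spike-in scale.

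The receptors that sense nutrients on these cells, and those that receive the hormones, were mostly dim. Of 12 nutrient receptors 7 were detected, with 3 higher by 2-fold or more and 0 lower. They were Ffar2, a receptor for short-chain fatty acids that leukocytes also carry (3.65 ± 0.21), the taste receptor subunit gene Tas1r3 (2.15-fold, software error 0.37 in log2) and Ffar4, a receptor for long-chain fatty acids, at least 4.76-fold. Of 16 genes for hormone receptors and for a peptidase that cleaves GLP-1 and GIP, 12 were not well above background on either array, including Cckar, Cckbr, Gipr, Sctr, Ghsr, Glp1r and Glp2r. Sort1, which encodes sortilin, a binding partner of neurotensin, was 6.82-fold higher (2.77 ± 0.21; its other probes 0.82 and 1.67), and Dpp4, the peptidase, 2.35-fold higher (1.23 ± 0.20; its other probes 0.69 and 1.88). Tas1r3 and Dpp4 lie below 0 on the spike-in scale, Ffar4 keeps no bound there, and the receptor and peptidase list then has a median of -0.51 in place of 2.00.

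**Figure D5:**
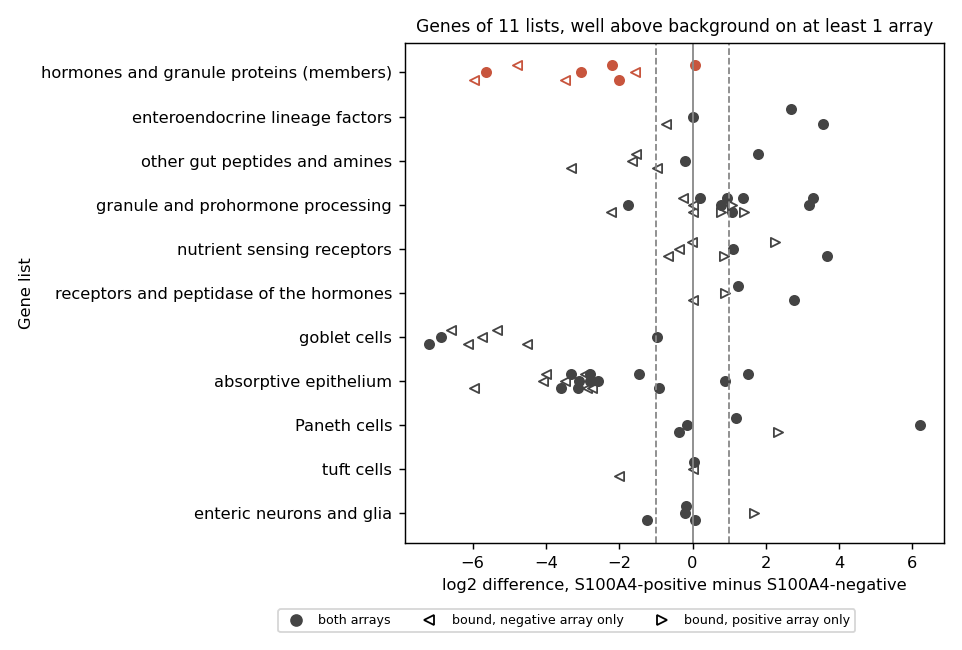
Log2 difference (S100A4-positive minus S100A4-negative) of the detected genes of 11 lists; filled circles are measured on both arrays, triangles are bounds for genes seen on 1 array and point away from 0, and dashed lines mark 2-fold. The members (red) and the goblet cell genes lie mostly left of -1, whereas the granule and processing genes lie on both sides, from -2.23 (Scg2) to 3.28 (Cpe).

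Most goblet cell and absorptive cell markers differed in the same direction as the hormones. Of the 8 goblet cell genes 5, and of the 18 absorptive genes 7, were well above background on the negative array alone. Those genes could not come out higher, so the counts that include them are a description only. Among genes measured on both arrays, 2 of 3 goblet cell genes and 8 of 11 absorptive genes were at least 2-fold lower. Of 8 goblet cell genes 7 were at least 2-fold lower and 0 higher, with the largest differences at Zg16 (-7.18 ± 0.31) and Tff3 (-6.86 ± 0.31), and bounds of at least 96.9-fold for Fcgbp, 69.8-fold for Muc2 and 53.9-fold for Clca1. The other probe of Fcgbp gave a difference of -1.25, and that of Muc2 allowed no fold. Summed over the list, the signal relative to each array's 75th percentile was 35.1 in the negative fraction and 0.37 in the positive. Such sums take in signals not well above background and surrogate values as they stand. Since heights of different probes are not comparable and bright probes weigh most, the sums here and below are a description only. Of 18 genes of the absorptive epithelium 15 were at least 2-fold lower, such as Krt18 (-3.60), Krt8 (-3.31), Krt20 (-3.11) and, at bounds, Krt19 (62.7-fold), Cdx1 (17.0-fold) and Sis (16.1-fold), and Cdh1 was higher (1.52), though below 0 on the spike-in scale. Their summed signal was 47.7 and 17.7, and 41.2 and 5.60 without Anpep, an aminopeptidase gene within 2-fold that was the brightest of them on the positive array. Epcam, a marker of all gut epithelium, read 153.8 and 52.6, a difference of -0.91 ± 0.23 that did not reach 2-fold. The summed signal of the 10 members was 23.7 in the negative fraction and 2.61 in the positive. It was 14.7 and 0.635 without Sct, the brightest of them on the positive array. Neurod1, not well above background on either array, is part of these sums, as are the dim positive-array signals of Gip, Chga, Chgb and Pyy.

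The remaining epithelial and neural lists differed among themselves. Of 6 Paneth cell genes 3 were at least 2-fold higher, which were Lyz1 (6.20), Mmp7 (1.18) and, at a bound of 2.32, Ang4, in log2, and 0 were lower, with a summed signal of 4.11 and 57.4. Lyz1, which has a close copy in Lyz2 that its probe may not tell apart, carried that sum, and without it the list summed to 3.38 and 3.51. On the spike-in scale Mmp7 lies below 0, Ang4 keeps no bound and the list's median of 1.18 becomes -1.33. Of 7 tuft cell genes 3 were detected and 1, Gfi1b, was at least 3.99-fold lower, the direction of the hormones; under normexp the count was 0. Of 10 genes of enteric neurons and glia, cells that can also make gut peptides, 5 were detected. Prph was at least 3.20-fold higher, with no bound on the spike-in scale and 0 genes of the list past 2-fold under normexp, and the list's summed signal was 2.11 and 2.00. Elavl3, Sox10, S100b and Gfap were not well above background on either array. Of the leukocyte markers, 6 of 6 for B cells were lower by 2-fold or more (summed signal 388 and 19.3), led by Cd79a (-6.14), and 6 of 6 for macrophages higher (3.96 and 183), led by C1qa (7.13). The part of these other cells in the differences of the hormone genes was not tested.

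The members' promoters are shown because Neurod1 and its relatives bind E-boxes, the letters CANNTG. Whether the promoter sequences bear on the differences was not tested. Sequences are those of RefSeq on build GRCm38.p6. All 10 members have an entry, 14 entries in all, and 250 bases before each start were searched. An E-box was found in 12 of 14 entries and in 66.2% of 32851 promoters of the same length; the letters read the same on both strands. The E-box CAGCTG was found in 5 of 14 entries and in 13.0% of all promoters, and CAGATG or its complement in 3 and in 14.4%. Overlapping entries of 1 gene share sequence, so these counts are a description. The 100 bases before the start are given for 4 members, with E-boxes, TATAAA and TGACGTCA (the cyclic AMP response element) in capitals; the forms overlap, since CAGCTG and CAGATG are E-boxes.
Cck, chr9:121495695-121495794, minus strand: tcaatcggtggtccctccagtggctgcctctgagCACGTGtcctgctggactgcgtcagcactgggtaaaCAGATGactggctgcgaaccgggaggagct
Gip, chr11:96024445-96024544, plus strand: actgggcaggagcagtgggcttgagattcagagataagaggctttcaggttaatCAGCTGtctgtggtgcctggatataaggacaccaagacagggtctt
Sct, chr7:141279134-141279233, minus strand: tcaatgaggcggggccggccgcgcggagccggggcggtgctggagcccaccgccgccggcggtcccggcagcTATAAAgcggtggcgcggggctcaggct
Chgb, chr2:132781542-132781641, plus strand: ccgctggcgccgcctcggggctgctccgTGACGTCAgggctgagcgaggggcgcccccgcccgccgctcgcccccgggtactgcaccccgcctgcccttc
Cck holds 2 E-boxes in this stretch and Gip 1. TATAAA on the forward strand was found in 2 of 14 member entries, those of Sct and Gcg, and in 7.59% of all promoters, and TGACGTCA in 1 of 14, that of Chgb, and in 1.55%. The other motifs searched were CACGTG, found in 1 of 14 entries and in 6.02% of all promoters, and 2 more on both strands. Of those, TGACG was found in 4 of 14 and in 17.8%, and GGGCGG in 4 of 14 and in 32.7%. These matches are letters in a sequence, and binding was not measured.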

How the data were processed

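Total RNA of 2 sorted fractions, 1 sample each, was turned into Cy3-labelled cRNA (Agilent's kit for low input), per the labels' protocols. The authors used Agilent arrays of design 74809, scanned in 1 channel, per the file headers, and read out the spots with Feature Extraction 10.7.1.1. The version in the submitters' processing notes is 9.5.1.1. Both arrays share 1 slide. In the deposited signal intensities, background and spatial trends had been taken off and a surrogate stood in for each spot not above background, per the file headers, with no normalization between arrays. The deposited flags for spots well above background or outliers, another kind of value, were taken as given. The deposited value table, an intensity per probe, was an alternative only; no source used here states how the authors made it.

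Control spots were dropped, as were outliers (138 spots for the negative fraction and 80 for the positive). Log2 signals were centred on the 75th percentile, and the spots of a probe averaged; a probe counted as well above background where at least 0.5 of its spots did. The 10 genes were taken by the array's gene name. For other genes, 32994 probes were named through RefSeq accessions of a later gene table, 10224 by symbol and 520 by synonym; 12867 stayed unnamed. Each gene was read from its probe of highest mean log2 signal over both arrays, among those well above background on at least 1 array. A call is a size of 2-fold (4-fold as an alternative), since 1 array per group allows no test, and the number of arrays limits the precision.

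The genes and the 12 lists were chosen with earlier results of these data known. From each list, the rule named genes past 2-fold: at most 3 per direction measured on both arrays, and at most 3 seen on a single one; genes not detected, Epcam and members of other lists given without a call were named in addition, after their values were seen. Some genes of the lists are not reported here by name. Alternatives were normexp (offset 50), quantile and cyclic loess normalization (limma 3.58.1, R 4.3.3), other scalings and filters, other probe rules and the value table. Summed signals without a list's brightest gene were added after seeing the data. Steps were tested on simulated data. Python 3.11.15, numpy 2.4.6 and pandas 2.3.3 were used.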

Additional observations from a re-analysis of the deposited data

How the results depend on the processing

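Cck, Sct, Ghrl, Gip, Chga and Chgb were at least 2-fold lower under all alternatives that gave them a value. Nts (-0.58) and Pyy (a bound of -0.26) missed 2-fold under normexp alone, and Gcg ranged from -2.44 (spike-in scaling) to 0.21 (normexp). The count of 8 members at least 2-fold lower became 4 over genes well above background on both arrays only, by the alternative's own construction, and was 6 to 9 under the others; the count higher was 0 throughout. The median over 9 members, -3.52, used differences without bounds, also for the 4 members seen on the negative array alone. It was the value of Pyy, which rests on a surrogate, so it is a description only. The list medians below were taken the same way. The member median became -2.15 (normexp), -3.91 (quantile), -3.87 (cyclic loess), -6.04 (spike-in scaling), -4.16 (no scaling), -3.92 (value table), -3.28 (no filter), -2.19 (both arrays only), -2.86 (mean over all probes) and -3.04 (bounds). List medians that changed sign were, on the spike-in scale, lineage factors (-1.16), receptors and peptidase (-0.51), Paneth cells (-1.33), granule and processing genes (-1.69) and nutrient receptors (-1.53); with genes measured on both arrays only, other gut peptides and amines (0.80, from -3.20); enteric neurons and glia (from -0.18 to 0.0859 with normexp, 0.92 with no filter and 0.67 with the mean over probes); and tuft cells (from -1.97 to 0.0176 with normexp, 0.17 with no filter, 0.0280 on both arrays only, 0.44 with the mean over probes); at bounds the tuft cell median was 0. Beyond the alternatives' construction, the cause was not tested. Of 456 list values, counts and medians together, 307 moved little and 149 moved more or reversed. Those that moved little include counts of 0 that stayed 0. They also include changes such as 6 to 4 higher granule and processing genes under cyclic loess normalization, and 3 to 2 higher nutrient receptors under normexp. The 307 are thus a loose measure of how stable the lists are. No paired analysis was possible because each fraction has 1 array. Dim signals limit Nts, Pyy and Gcg: on the positive array Nts (16.8) read near the lowest signal well above background (15.7), and Pyy (4.03) and the 3′ Gcg probe (3.66) held surrogate values below it.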
